A study of Mus musculus with 36 samples.

Results

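The glutamatergic synapse genes described here are 45 genes for glutamate receptors, their scaffolds, the vesicle release machinery, synaptic adhesion and calcium/calmodulin kinase II, chosen from a fixed list of symbols by whether the deposited tables hold them. All 45 were present among 24421 gene symbols, and all 45 passed the filter on low values in every comparison. They divide into 8 roles: 4 AMPA receptor subunits, 6 NMDA receptor subunits, 4 kainate receptor subunits, 6 metabotropic glutamate receptors, 9 postsynaptic scaffolds, 9 presynaptic vesicle and active zone genes, 5 adhesion genes and 2 CaMKII subunits.

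Polyadenylated RNA of mouse hippocampus was sequenced in 36 libraries, in 6 groups of 3 females and 3 males. The groups were C57BL/6 mice of 18 months given a nanoligomer, untreated C57BL/6 mice of 18 months, untreated C57BL/6 mice of 8 months, APP/PS1 mice of 4 months given a nanoligomer, untreated APP/PS1 mice of 4 months, and untreated non-carrier littermates of 4 months. They are called old nanoligomer, old, young, APP/PS1 nanoligomer, APP/PS1 and littermate. A nanoligomer is a short synthetic nucleic acid analogue, which the series title ties to lowering NF-κB and NLRP3, and APP/PS1 mice carry transgenes for the amyloid precursor protein and presenilin 1. The sources used here do not give the promoter of the transgenes, the founding line, or how much nanoligomer was given and for how long. Nor do the labels say whether the libraries of a group came from separate animals, so the p-values measure the spread between these libraries, which may be technical. Each of the 4 comparisons has its own table, normalized on its own. Female 3 of the APP/PS1 nanoligomer group held 0.913 M reads and was left out, so that group has 5 libraries; the other 35 libraries held 27.6 to 46.3 M reads.

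At an excitatory synapse the vesicular glutamate transporter fills vesicles, which dock at the active zone and fuse through SNARE proteins when a calcium sensor is triggered. Released glutamate opens AMPA and kainate receptors and, once the membrane is depolarised, the calcium-permeable NMDA receptors, while metabotropic receptors signal more slowly through G proteins. Dlg, Shank and Homer proteins hold the receptors in the postsynaptic density, neurexins and neuroligins join the membranes, and CaMKII is the kinase that strengthens active synapses in the hippocampus. Pyramidal cells of CA1 and CA3 and granule cells of the dentate gyrus are the main glutamatergic neurons of this tissue, and they differ in which of these genes they use.

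Levels between genes are given as CPM, recovered reads scaled to a common library total, per kilobase of exon, as the median of 35 libraries. Camk2a, the alpha subunit of CaMKII, was highest at 736 CPM per kb, followed by the SNARE gene Snap25 at 389, the vesicular glutamate transporter Slc17a7 at 336 and the synapsin Syn1 at 313 CPM per kb. Grm8, a group III metabotropic receptor that lowers transmitter release, was lowest at 1.19 CPM per kb. Presynaptic genes were spread widely, since Bsn at 54.1 and Syn3 at 4.75 CPM per kb were below receptor genes such as Gria1 and Grin1. The lowest levels were those of receptor genes, from Grm8 up to Grin2a at 4.58 CPM per kb, all below Syn3.

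Within each role the order per kilobase was as follows, and it depends on the summed length of all annotated exons of a gene. By undivided median CPM some places differ. Homer3 (39.9) was below Homer2 (95.3), and Grin2d (30.0) below Grin2b (68.9). Grm5 (210) was above Grm3 (66.4), and Nrxn2 (604) above Nlgn2 (393). Among AMPA receptor subunits, Gria1 was highest at 142 and Gria4 lowest at 13.7 CPM per kb. The NMDA receptor genes were led by the obligatory subunit Grin1 at 74.2 CPM per kb, and Grin2b, the glutamate-binding subunit that prevails early in life, was lowest at 2.77 CPM per kb. The high-affinity kainate subunit Grik5 stood at 71.6 and the pore subunit Grik1 at 2.31 CPM per kb. Among metabotropic receptors Grm3 was highest, at 21.8 CPM per kb; it is also expressed in astrocytes. Shank1, a master scaffold of the postsynaptic density, led the scaffolds at 142 CPM per kb, and Homer2, which links metabotropic receptors to internal calcium stores, was lowest at 7.55 CPM per kb. Syn3, the synapsin found mainly in immature neurons, was the lowest presynaptic gene at 4.75 CPM per kb. Nlgn2, a neuroligin that sits mainly at inhibitory synapses, led the adhesion genes at 67.9 CPM per kb, and Nlgn1, the neuroligin of excitatory synapses, was lowest at 5.54 CPM per kb. Neighbours such as Grik5 and Grin1, or Gria1 and Shank1, overlapped in their ranges over libraries.

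**Figure D1:**
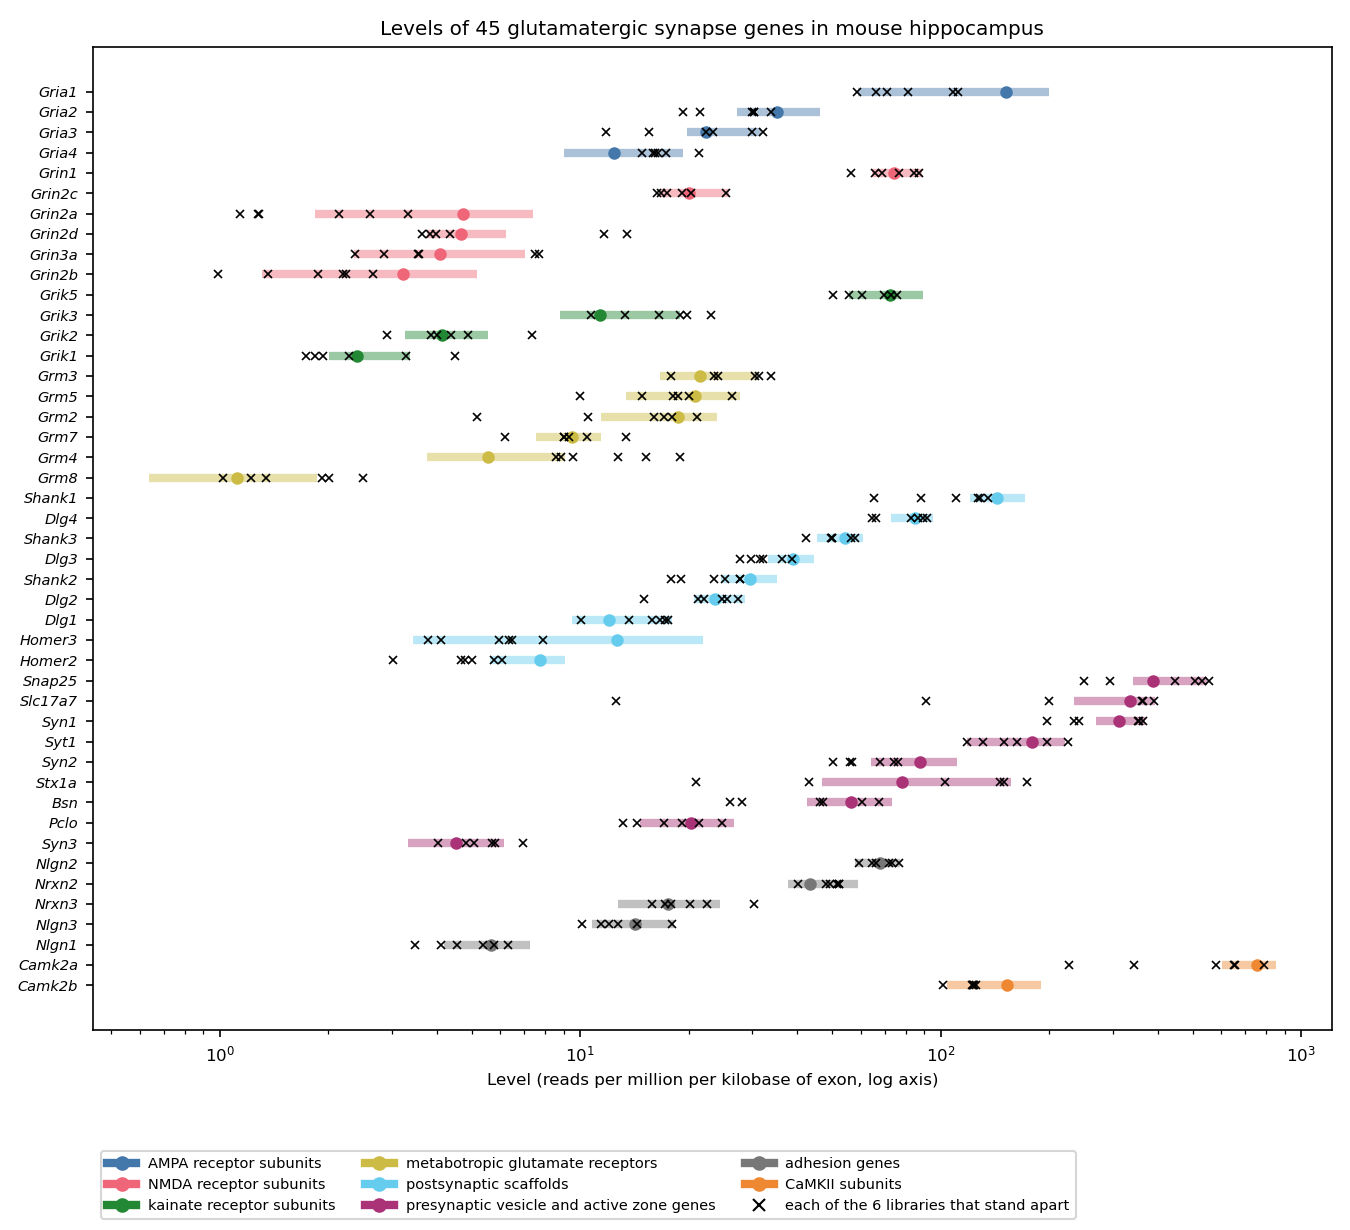
Level of each member in CPM per kilobase of exon (log axis), grouped by role. Points are medians and bars the ranges over the 29 libraries that do not stand apart, and crosses are the 6 libraries that do; Slc17a7 has crosses far below its bar, down to 12.5 CPM per kb.

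Members differed in how steady they were from library to library. Nlgn2 was the steadiest, with a highest level 1.33 times its lowest over 35 libraries. Slc17a7 covered the widest range over these 35, 31.4-fold, and the SNARE gene Stx1a the next widest, 8.30-fold. That order rests on 6 libraries with high striatum or thalamus markers, described below. Over the other 29 libraries Slc17a7 ranged 1.68-fold and Stx1a 3.34-fold. Homer3 was then the widest, at 6.38-fold, and Dlg4 the steadiest, at 1.31-fold, beside 1.33-fold for Nlgn2. Promoter sequence was available for 30 of the 45 members from RefSeq on GRCm38.p6. The 250 bases before the annotated start are printed for the genes of widest (Slc17a7) and narrowest (Nlgn2) range over all 35 libraries. They are also printed for Camk2b, which had a low p in both the transgene and the old treatment comparison. They read 5′ to 3′ on the gene's own strand, with every match to the GC box GGGCGG, on either strand, in capitals. Slc17a7 lies at chr7:45163671-45163920 on the plus strand, Camk2b at chr11:6065749-6065998 on the minus strand and Nlgn2 at chr11:69837785-69838034 on the minus strand.
Slc17a7: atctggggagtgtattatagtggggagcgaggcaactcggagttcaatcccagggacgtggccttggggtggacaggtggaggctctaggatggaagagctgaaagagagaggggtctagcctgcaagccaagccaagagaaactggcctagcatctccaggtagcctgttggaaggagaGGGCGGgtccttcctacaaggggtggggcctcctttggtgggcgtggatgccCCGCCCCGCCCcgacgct
Camk2b: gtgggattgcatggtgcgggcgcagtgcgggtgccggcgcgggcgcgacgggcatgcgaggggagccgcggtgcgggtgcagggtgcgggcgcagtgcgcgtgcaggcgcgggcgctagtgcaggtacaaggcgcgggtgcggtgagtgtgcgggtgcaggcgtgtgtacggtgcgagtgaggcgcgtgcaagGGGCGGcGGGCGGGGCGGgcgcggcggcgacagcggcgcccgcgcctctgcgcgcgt
Nlgn2: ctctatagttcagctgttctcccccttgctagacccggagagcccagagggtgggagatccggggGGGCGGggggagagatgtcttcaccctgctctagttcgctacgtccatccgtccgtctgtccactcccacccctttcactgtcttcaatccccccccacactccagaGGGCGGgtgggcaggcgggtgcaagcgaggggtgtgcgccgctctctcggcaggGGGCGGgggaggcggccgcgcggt
All 3 windows held 3 GC boxes each, so Nlgn2 and Slc17a7 did not differ in that count. The share of G and C was 61.2% before Slc17a7, 78.4% before Camk2b and 67.6% before Nlgn2, against a median of 52% over 27025 genes with an entry.

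Over the 30 members, 20 (66.7%) held a GC box in the window, against 35.4% of all 27025 genes. The TATA box TATAAA was found in 3 members (10%: Dlg1, Dlg2 and Homer2), against 14.3% of all genes. The cAMP response element TGACGTCA was found in Syn1 alone (3.33%), against 1.77% of all genes. The kappa-B consensus, the sequence that NF-κB proteins bind, matched in 4 members (13.3%: Dlg4, Grm8, Nrxn3 and Shank3), against 4.46% of all genes. The core of the RE1 silencer element, which represses neuronal genes in other tissues, matched in 0 members and in 10 of all genes. Both strands were searched, genes with several starts counted as matched if any window matched, and a match is a description of letters, not of binding.

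Several libraries went against their tissue label and are described before any comparison. The hippocampal markers Prox1, of dentate granule cells, and Fibcd1, of CA1 pyramidal cells, were detected in every library. They were at 9.97 to 70.8 and 14.2 to 202 CPM in the 29 libraries below the threshold given next, with medians of 49.8 and 129 CPM. In the 6 libraries above it they were at 8.44 to 44.0 and 9.66 to 31.6 CPM. Old male 3 and young male 2 lay below the range of the 29 for both. In 6 libraries the summed level of 14 striatum markers or of 14 thalamus and habenula markers passed 1000 CPM, a threshold set after the values were seen, while the other 29 reached at most 628 and 598 CPM. The 29 are set apart by these sums alone: APP/PS1 nanoligomer male 1, among them, had the lowest Prox1 and Fibcd1 of the 29 and the highest neocortex sum, 1149 CPM, and APP/PS1 nanoligomer female 1 had choroid plexus markers at 5539 CPM. The neocortex sum also passed 1000 CPM in old nanoligomer male 1 (1065), APP/PS1 female 2 (1041) and APP/PS1 male 1 (1011), which are among the 29. The 6 libraries above the threshold are APP/PS1 female 1, old nanoligomer female 3, young male 1, young male 2, old male 3 and APP/PS1 nanoligomer male 2. Counts of members by the p-values of limma are therefore given below with and without them, and because the RNA is from bulk tissue, fewer cells of a type and less RNA per cell cannot be told apart.

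APP/PS1 female 1 differed most in these genes. Its striatum markers summed to 3528 CPM, the interneuron gene Gad2 was at 730 CPM against 116 to 195 CPM in the 29 libraries, and Slc17a7 was at 67.7 CPM against 1266 to 2125 CPM. It was the lowest of 35 libraries for 13 members and the highest for 10. Below the range of the 29 libraries lay 17 members, among them Slc17a7, Camk2a and Bsn, and above it lay 10, among them Grin2d, Grm4 and Nrxn3. Young male 1, with thalamus and habenula markers at 1468 CPM, choroid plexus markers at 5913 CPM and Slc17a7 at 491 CPM, was below that range for 20 members and above it for 4. Old male 3 was below it for 14 and above it for 2, and old nanoligomer female 3, whose Slc17a7 stood at 1075 CPM, was below it for 10 and above it for 2. The remaining pair departed less: APP/PS1 nanoligomer male 2 was below for 3 members and above for 6, and young male 2 below for 0 and above for 2.

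**Figure D2:**
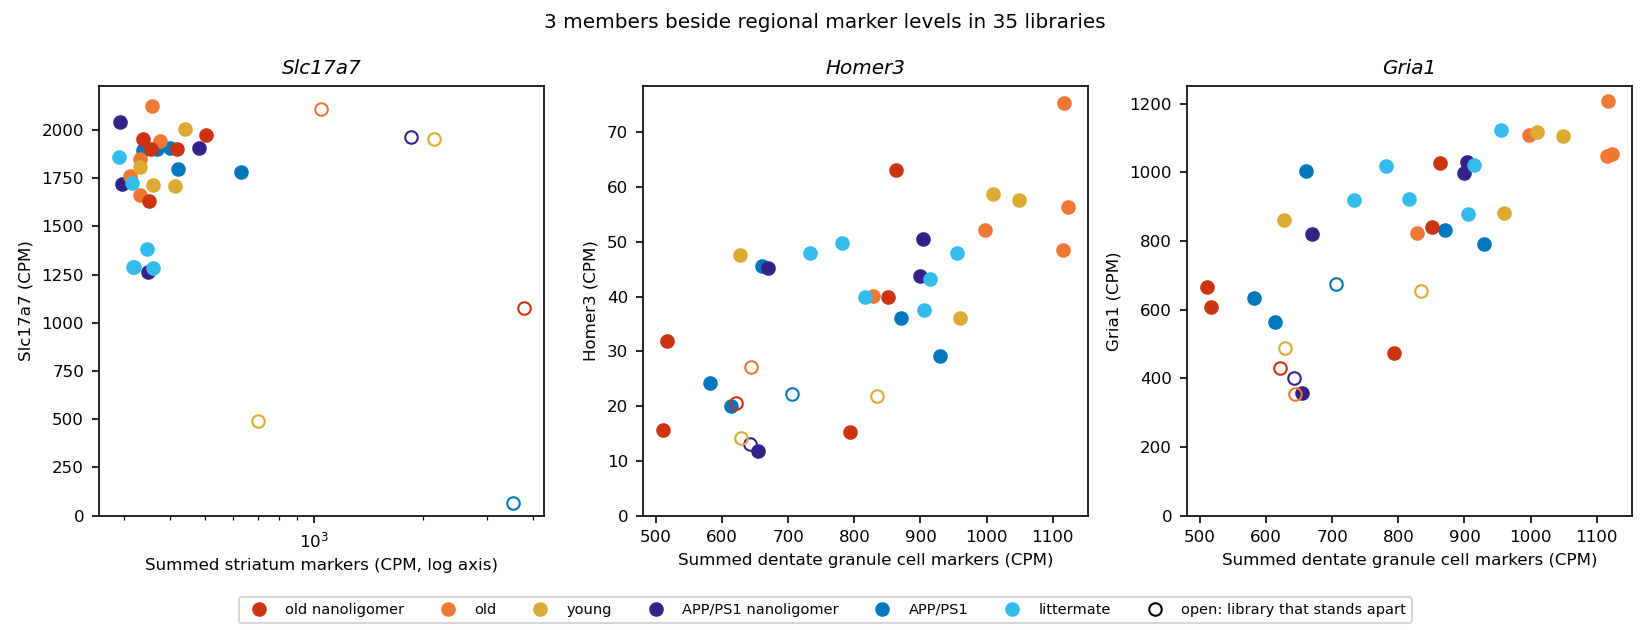
Slc17a7 beside the summed striatum markers, and Homer3 and Gria1 beside the summed dentate granule cell markers, in CPM, for each of 35 libraries coloured by group (open circles, libraries that stand apart). Slc17a7 lies at 67.7 CPM in APP/PS1 female 1, and libraries with a low dentate sum include most of those with a low Homer3 or Gria1.

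The balance within families also varied by library. Per kilobase of all annotated exons, Gria1 made up a median of 67.5% of the AMPA receptor genes, with a range of 41.0 to 74.8% over 35 libraries. The exons sum to 6.04 kb for Gria1 and 15.5 kb for Gria2, and the transcripts present may be shorter. Undivided medians were 860 CPM for Gria1 and 534 CPM for Gria2, so the share depends on the length used. By group, the Gria1 share had its lowest, median and highest values at 50.1, 60.1 and 72.3% in old nanoligomer, 49.9, 72.7 and 74.8% in old and 51.3, 69.0 and 74.1% in young libraries. In the transgenic cohort they were 52.9, 61.9 and 71.4% in APP/PS1 and 65.97, 69.0 and 71.0% in littermate libraries, so the littermates lay close together inside the wider spread of APP/PS1. The 5 APP/PS1 nanoligomer libraries had a median of 65.5% and ran from 41.0 to 68.8%.

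The ratios of Grin2a to Grin2b and of Camk2a to Camk2b were taken between CPM values, not divided by exon length. Per kilobase the median levels were 4.58 CPM for Grin2a and 2.77 for Grin2b, and 736 for Camk2a and 152 for Camk2b. The ratio of Grin2a to Grin2b, the subunits whose exchange marks synaptic maturation, had a median of 0.984. It ran from 0.375 in APP/PS1 female 1 to 1.39 in an old library. The lowest, median and highest ratios were 0.655, 0.994 and 1.22 in old nanoligomer libraries, 0.934, 1.24 and 1.39 in old libraries and 0.681, 1.0002 and 1.23 in young ones. Camk2a to Camk2b ran from 1.52 in APP/PS1 female 1 to 5.67 in an old nanoligomer library, around a median of 3.96. Dlg4, which encodes the most abundant postsynaptic scaffold of the Dlg family, kept a narrow share of the 4 Dlg genes per kilobase, 49.8 to 57.2% with a median of 53.0%. These shares and ratios are descriptions, and their groups overlap.

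The first comparison asks how APP/PS1 hippocampi differ from those of littermates. 0 of the 45 members passed an adjusted p of 0.05 in limma (0.0486% of 16475 genes did) and 0 in edgeR, while 9 members (20%) had an unadjusted p under 0.05 against 10.2% of all genes. Of these 9, 6 were higher in APP/PS1 (13.3% of members, against 4.72% of all genes) and 3 were lower (6.67%, against 5.46%). DESeq2 called 3 members, the synapsin Syn3, the neurexin Nrxn3 and the kinase subunit Camk2b, against 1.55% of all genes. That fit held all libraries, among them APP/PS1 female 1, the highest of 35 for Syn3 (85.5 CPM) and Nrxn3 (383 CPM). Its Camk2b, at 1117 CPM, lay within the 953 to 1734 CPM of the 29 libraries that do not stand apart. The median log2 fold change of the members was 0.02, beside 0.001 over all genes tested, with 24 positive and 21 negative. The median was 0.06, with 29 of 45 positive, without the libraries that stand apart.

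Syn3 had its lowest, median and highest normalized counts at 2184, 2451 and 2940.0 in APP/PS1 libraries, against 1464, 1868 and 2344 in littermate libraries. The groups overlapped in that 1 littermate reached the lower APP/PS1 values. Its log2 fold change was 0.45 (SE 0.11), with an adjusted p of 0.21 in limma and 0.032 in DESeq2. Without the libraries that stand apart it was 0.38 (adjusted p 0.16).

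Nrxn3, a presynaptic adhesion receptor, stood at 8649, 9959 and 13156 in APP/PS1 against 5718, 8165 and 8628 in littermate libraries. It was the only member whose groups did not overlap (2.22% of members, against 0.85% of all genes), though the highest littermate and the lowest APP/PS1 library nearly met. Its log2 fold change was 0.42 (SE 0.12; adjusted p 0.235 in limma, 0.046 in DESeq2), and 0.34 without the libraries that stand apart. All 5 adhesion genes had a positive fold change, with a median of 0.13, and Nrxn2, the other neurexin in the list, was at 0.15 (adjusted p 0.366).

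Camk2b, the beta subunit of CaMKII that binds actin in spines, had 38389, 42760.0 and 52784 normalized counts in APP/PS1, against 49619.9, 54588 and 58537 in littermate libraries. APP/PS1 libraries held the lowest values and overlapped the littermates in their upper ones. The log2 fold change was -0.28 (SE 0.08; adjusted p 0.243 in limma, 0.030 in DESeq2). Its partner Camk2a was at -0.36 with all libraries and at -0.08 without the libraries that stand apart (adjusted p 0.672 and 0.772).

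Among scaffolds the smallest p belonged to Homer3, a Homer protein of the postsynaptic density. It had 748, 996 and 1643 normalized counts in APP/PS1 against 1388, 1651 and 1812 in littermate libraries, and 1 APP/PS1 library lay among the littermates. The log2 fold change was -0.63 (SE 0.18, adjusted p 0.244). Dlg1, which helps carry AMPA receptors to the membrane, was at 4059.6 to 6535 in APP/PS1 against 4232 to 5207 in littermates, a log2 fold change of 0.29 (adjusted p 0.399). Of the 9 scaffolds 2 had a positive fold change and 7 a negative one, and without the libraries that stand apart 6 were positive.

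Receptor genes showed both directions. Gria1, the AMPA subunit inserted at synapses during potentiation, had 20974, 26578 and 36271 normalized counts in APP/PS1 against 32509, 35403 and 41159 in littermate libraries. The groups overlapped at the upper APP/PS1 values, and the log2 fold change was -0.40 (SE 0.13, adjusted p 0.297). Grm8 had 362, 482 and 688 normalized counts in APP/PS1 against 292, 369.9 and 425 in littermate libraries, with a log2 fold change of 0.46 (adjusted p 0.313). Grik3, a kainate receptor pore subunit, had 3067, 4839 and 7092 in APP/PS1 against 3365, 3586 and 3765 in littermates, where the littermates lay close together and the APP/PS1 libraries on both sides of them. Its log2 fold change was 0.43 (adjusted p 0.364). Of the NMDA receptor genes the smallest p was that of Grin2d, an interneuron-rich subunit, at 0.31 (adjusted p 0.659) and 0.09 without the libraries that stand apart.

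**Figure D3:**
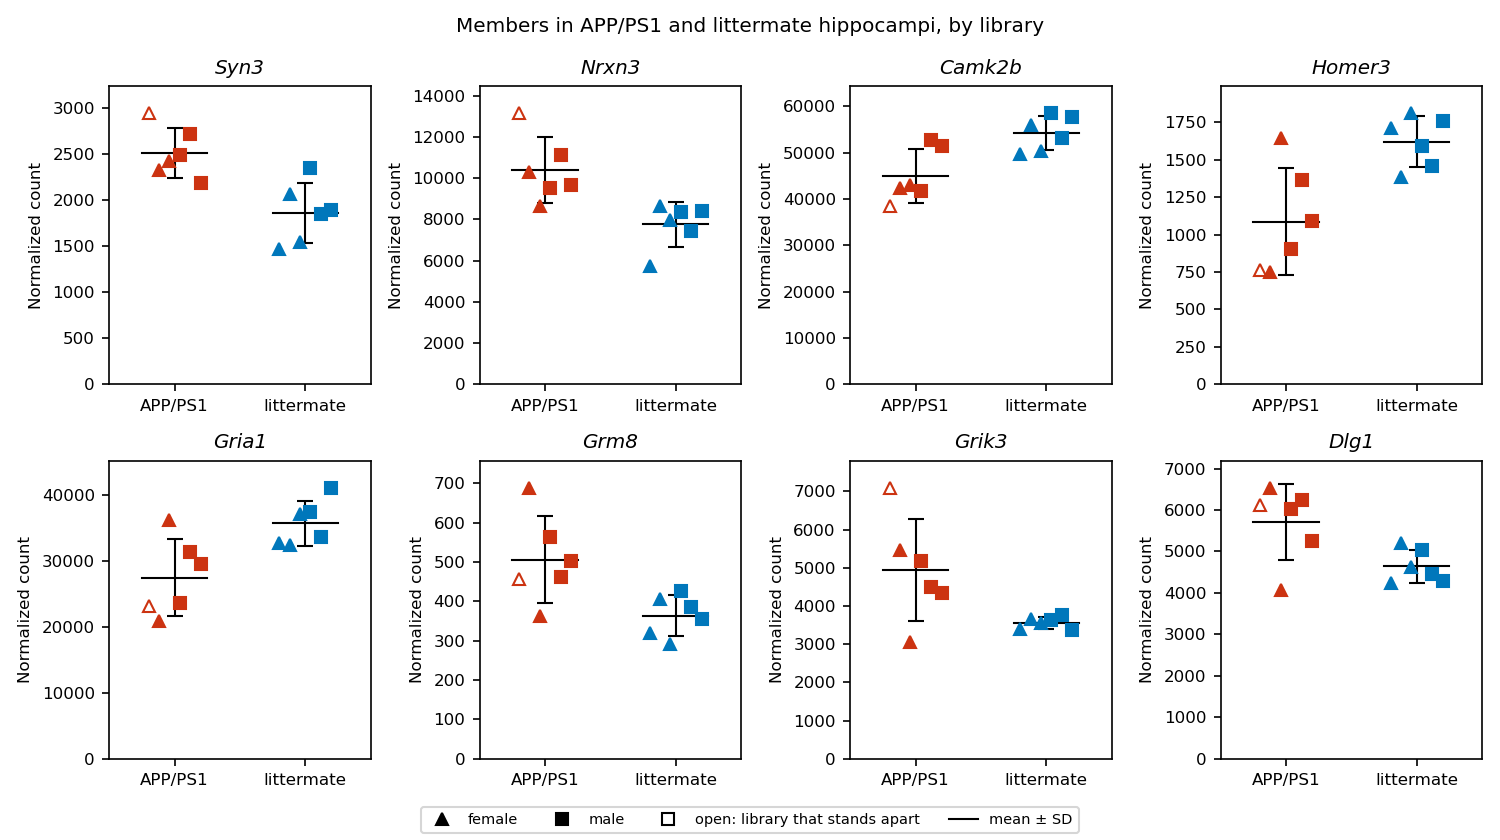
Normalized counts of 8 members by library in APP/PS1 (left) and littermate (right) hippocampi; triangles are females, squares males, open symbols the library that stands apart, and bars the mean ± SD. Nrxn3 is the gene whose groups do not overlap, and 1 filled APP/PS1 triangle lies among or beyond the littermates for Homer3, Gria1, Grik3 and Dlg1.

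The library behind that last pattern was APP/PS1 female 3, with 1643 normalized counts of Homer3, 36271 of Gria1, 3067 of Grik3 and 4059.6 of Dlg1. Leaving out that library alone raised the calls in limma to 4 members, against 1.56% of all genes. These were Homer3 (log2 -0.79, adjusted p 0.0181), Gria1 (-0.51, 0.0256), Grik3 (0.57, 0.0181) and Dlg1 (0.39, 0.0282), each fold change and adjusted p in that order. Its microglia genes summed to 1145 CPM and its astrocyte genes to 5970 CPM, the APP/PS1 group median of the microglia sum being 470 CPM; the part of these in the result was not tested. Leaving out APP/PS1 female 1 instead gave 0 calls but 15 members with an unadjusted p under 0.05.

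Without the libraries that stand apart, 0 members were called (0.128% of all genes) and 15 (33.3%) had an unadjusted p under 0.05, against 11.8% of all genes. Slc17a7 moved most, with a log2 fold change of -0.44 with all libraries and 0.38 without APP/PS1 female 1, the only one of the 6 in this comparison. Markers of regions also had fold changes in this comparison. All 13 striatum markers tested had a positive fold change (median 1.03, and 0.45 with 11 positive without that library), 8 of 13 neocortex markers did (median 0.41), and 2 of 13 dentate granule cell markers did (median -0.44, 6 lower at an unadjusted p under 0.05). Without that library the neocortex median was 0.45 with 11 positive, and the dentate median was -0.36 with 3 positive. The dentate markers summed to 581, 683 and 929.8 CPM in APP/PS1 and 732, 861 and 955 CPM in littermate libraries, as lowest, median and highest. The neocortex markers summed to 409, 882 and 1041 CPM in APP/PS1 and 558, 668 and 744 CPM in littermate libraries. Prox1 was at 18.8 to 49.8 CPM in APP/PS1 and at 33.6 to 70.8 CPM in littermate libraries. The part of regional content in the result was not tested.

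In the old treatment comparison, nanoligomer-treated old hippocampi were set against untreated old ones. 0 members were called by limma (0% of 16517 genes), 0 by edgeR and 0 by DESeq2 (0.0121% of all genes). At an unadjusted p under 0.05 there were 8 members (17.8%), against 7.22% of all genes, 5 of them higher (11.1%, against 3.62%) and 3 lower (6.67%, against 3.6%) in treated libraries. Leaving out single libraries moved that count from 1 to 12 and the share of all genes with it. It was 1 without old nanoligomer male 1 (5.12% of all genes), 2 without old male 2 (4.81%), and 3 without old female 3 (5.29%) or old male 1 (5.27%). It was 4 without old nanoligomer female 2 (7.36%) or male 3 (5.99%), and 5 without old nanoligomer female 3 (7.02%). It was 11 without old nanoligomer female 1 (10.4%) and 12 without old male 3 (13.3%). The median log2 fold change of the members was 0.01, beside -0.003 over all genes.

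Gria4, the AMPA subunit with fast gating that interneurons use much, had 2739, 3790.4 and 4611 normalized counts in old nanoligomer libraries, against 2318, 2775 and 3544 in old libraries. The groups overlapped, and the log2 fold change was 0.36 (SE 0.13, adjusted p 0.678). Gria3 had 7397, 8733 and 10235 in old nanoligomer against 7431, 7592 and 8334 in old libraries (log2 0.17, adjusted p 0.678), the untreated libraries lying close together. Gria1 went the other way in its fold change, -0.44 (adjusted p 0.729), with 15585 to 38793 in treated and 13384 to 45125 in untreated libraries.

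Dlg2, a Dlg scaffold that anchors NMDA receptors, had 13184, 14350.2 and 16123 normalized counts in old nanoligomer libraries and 12533, 13071 and 13435 in old libraries. Most treated libraries lay above the narrow untreated range, and the log2 fold change was 0.16 (SE 0.06, adjusted p 0.678). Dlg1 had 4442 to 6981 in old nanoligomer against 3804 to 5556 in old libraries (log2 0.28, adjusted p 0.678). Shank3, a scaffold that ties receptors to the actin skeleton, had 15772 to 19354 in old nanoligomer against 16820.4 to 21108 in old libraries (log2 -0.16, adjusted p 0.678), and both scaffolds overlapped between groups.

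Homer3 had 579, 982 and 2386 normalized counts in old nanoligomer libraries against 1027, 1893 and 2811 in old libraries. It showed the largest fold change of the members in this comparison and also a wide overlap, since treated female 1 lay above 5 of 6 old libraries and old male 3 below 3 of 6 treated ones. The log2 fold change was -0.82 (SE 0.35, adjusted p 0.678). Camk2b had 36098, 42724 and 56227 in old nanoligomer against 42569, 57611 and 64738 in old libraries (log2 -0.32, SE 0.13, adjusted p 0.678), again with overlapping groups.

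Stx1a, the syntaxin of the SNARE complex, had the smallest p of the presynaptic genes. Its normalized counts were 6656, 10604 and 14657 in old nanoligomer and 4674, 6435 and 17544 in old libraries, where the highest value of all was that of old male 3. The log2 fold change was 0.51 (SE 0.26, adjusted p 0.687) and 0.74 (SE 0.20, adjusted p 0.32) without the libraries that stand apart. Grm8 was at 0.41 (adjusted p 0.678), Grik3 at 0.28 (adjusted p 0.678), Grin1 at -0.11 (adjusted p 0.702) and Nrxn3 at 0.08 (adjusted p 0.745), the smallest p of their roles.

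**Figure D4:**
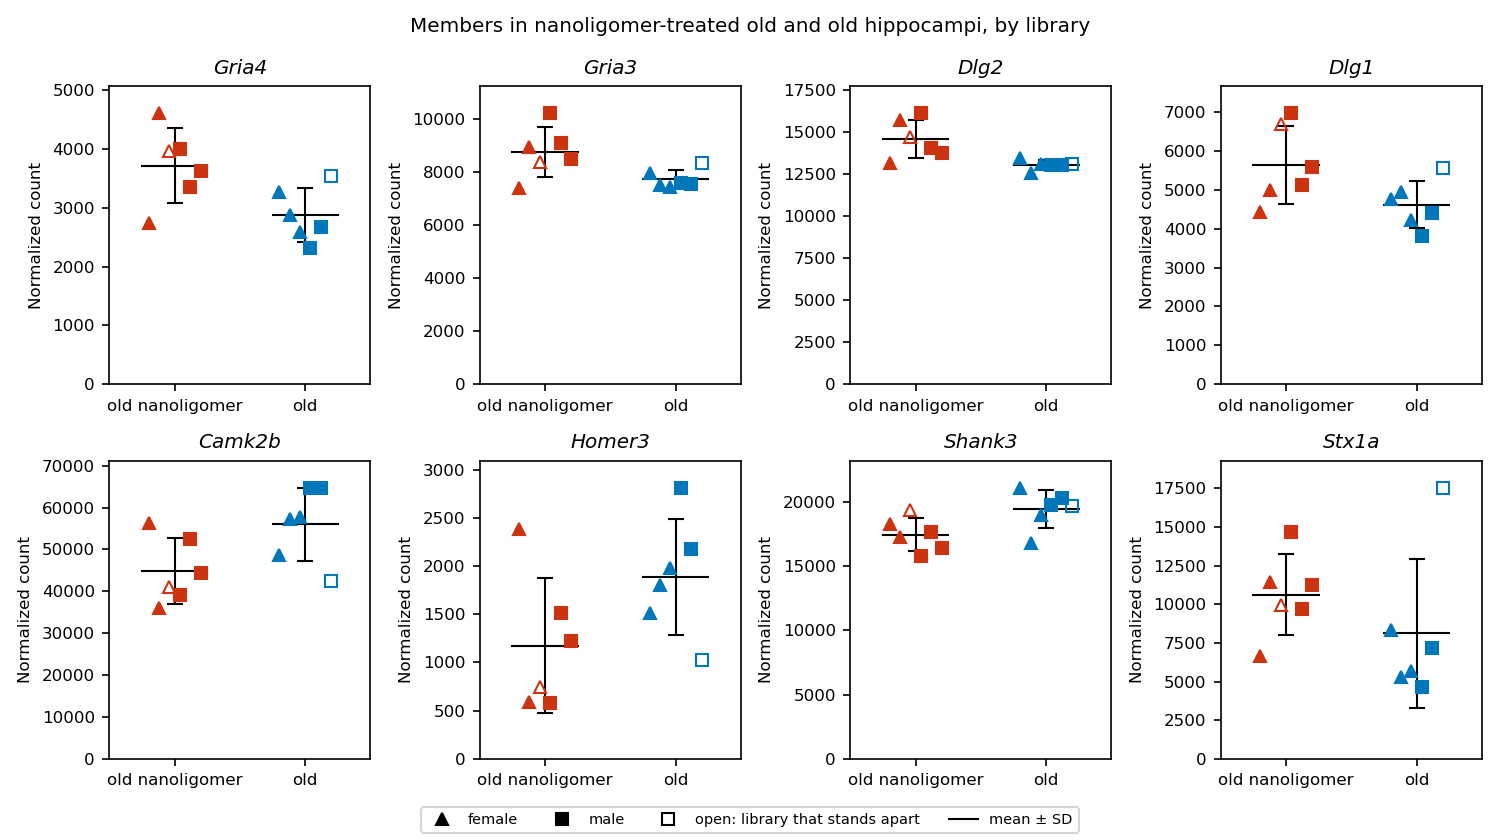
Normalized counts of 8 members by library in old nanoligomer (left) and old (right) hippocampi; triangles are females, squares males, open symbols libraries that stand apart, and bars the mean ± SD. The groups overlap for all 8, and old male 3, the open square on the right, is the lowest old library for Homer3 and Camk2b and the highest for Stx1a.

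Without old nanoligomer female 3 and old male 3, 12 members (26.7%) had an unadjusted p under 0.05, against 12.3% of all genes, and 0 were called (0%). Gria1 was then at -0.55 (adjusted p 0.332) and Camk2b at -0.40 (adjusted p 0.327). In this comparison 2 of 13 dentate granule cell markers, 3 of 9 CA3 and CA2 markers and 11 of 13 neocortex markers had a positive fold change, with medians of -0.49, -0.52 and 0.35. Of the striatum markers 12 of 14 were positive, with a median of 0.61, which was 0.42 with 8 positive without those libraries. The dentate, CA3 and CA2, and neocortex medians were then -0.70, -0.48 and 0.56, with 2, 2 and 10 positive. Of 14 microglia genes 6 had an unadjusted p under 0.05, 1 higher and 5 lower in old nanoligomer libraries. The dentate sum was 510.2, 707 and 863 CPM in old nanoligomer and 644, 1057 and 1123 CPM in old libraries, and the neocortex sum 563, 812 and 1065 CPM in old nanoligomer against 379, 631 and 927 CPM in old libraries. Prox1 was at 12.2 to 51.5 CPM in old nanoligomer libraries. In old libraries it was at 47.5 to 66.2 CPM, except in old male 3, at 8.44 CPM. The part of these markers in the result was not tested.

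Age was compared between 18 and 8 months. 0 members were called by limma (0.0361% of 16626 genes), 0 by edgeR (0.0361%) and 0 by DESeq2 (0.74%). At an unadjusted p under 0.05 there were 4 members (8.89%), against 6.13% of all genes, all 4 lower in old libraries (2.77% of all genes) and 0 higher (3.37% of all genes). The members' median log2 fold change was -0.002 and 22 of 45 were positive; the median over all genes was -0.004.

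The 4 were receptors. Grm8 had 269, 384 and 477 normalized counts in old against 330.3, 536 and 827 in young libraries, and 2 young libraries lay within the old range. Its log2 fold change was -0.57 (SE 0.19, adjusted p 0.661) and -0.35 without the libraries that stand apart. Grin3a, a glycine-binding NMDA subunit that reduces calcium entry, had 1159, 1521 and 1973 in old and 1526, 2070.5 and 3474 in young libraries (log2 -0.52, adjusted p 0.665; -0.28 without the libraries that stand apart). Grik1, a kainate receptor subunit, had 474, 576 and 718 in old and 554, 740.2 and 835 in young libraries (log2 -0.30, adjusted p 0.672). Grm4, the group III receptor close to Grm8, was at -0.51 (adjusted p 0.811). The groups overlapped for all 4.

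The other roles held no member under an unadjusted p of 0.05. Their smallest p-values were those of Gria4 (-0.20, adjusted p 0.858), Shank3 (0.12, adjusted p 0.855), Slc17a7 (0.38, adjusted p 0.882), Nrxn3 (-0.09, adjusted p 0.863) and Camk2b (0.25, adjusted p 0.858), each given as a log2 fold change. Slc17a7 had 66193, 76496 and 87878 normalized counts in old against 18474, 71498 and 81028 in young libraries, and the low young value was young male 1. Without the libraries that stand apart its fold change was 0.03. All 5 adhesion genes had a negative fold change, with a median of -0.09.

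Without old male 3, young male 1 and young male 2, 2 members (4.44%) had an unadjusted p under 0.05, against 6.11% of all genes, and 0 were called (0.0242% of all genes). Those were Grin3a and Grm4, at adjusted p-values of 0.793 and 0.749. Choroid plexus markers were lower in old libraries, with 0 of 14 positive and a median of -1.92, while 14 of 14 microglia genes were positive with a median of 0.36. Of the striatum markers 0 of 14 were positive, with a median of -0.57 that was -0.15 without those libraries; the part of these in the result was not tested.

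Nanoligomer treatment of APP/PS1 mice was compared in 5 treated and 6 untreated libraries. 0 members were called by limma (0% of 16124 genes), 0 by edgeR and 0 by DESeq2 (0.0434%). At an unadjusted p under 0.05 there were 0 members, against 2.96% of all genes, with 0 higher (1.45% of all genes) and 0 lower (1.51%), and 1 (2.22%, against 2.96%) without the libraries that stand apart. Of the 45 fold changes 29 were positive, but 22 were when the reads were scaled to CPM and 15 without the libraries that stand apart.

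The smallest p was that of Grin2c, an NMDA subunit found in astrocytes and some interneurons as well as in cerebellar granule cells. Its normalized counts were 2371, 2414, 2445, 2600.1 and 2686 in APP/PS1 nanoligomer libraries, against 2276, 2870.2 and 3253 as lowest, median and highest in APP/PS1 libraries. The groups overlapped, since APP/PS1 female 1 held the lowest value of all. The log2 fold change was -0.19 (SE 0.09, 95% interval -0.39 to 0.01, adjusted p 0.997), and -0.23 without the libraries that stand apart.

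Bsn, the active zone scaffold Bassoon, had 26158, 27175, 30114, 31310.5 and 33501 normalized counts in treated libraries against 10754, 27378 and 30647 in untreated ones, the lowest being APP/PS1 female 1. Its log2 fold change was 0.27, and 0.07 without the libraries that stand apart. Slc17a7 had 34993, 46295, 54739.8, 56946 and 57451 in treated against 1753, 52001 and 53978 in untreated APP/PS1 libraries, with a log2 fold change of 0.62 (95% interval -0.99 to 2.23) that was -0.10 without those libraries. The interval with all libraries held values of both signs, and APP/PS1 female 1 held the lowest count.

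The smallest p-values of the other roles belonged to Gria2 (0.11), the subunit that makes AMPA receptors impermeable to calcium, to Grik5 (0.08), to Grm2 (0.26), a presynaptic autoreceptor, to Shank2 (0.08), to Nrxn2 (-0.08) and to Camk2a (0.22), as log2 fold changes, all with an adjusted p of 0.997. Camk2a, Grm2 and Shank2 were at 0.02, -0.04 and -0.03 without the libraries that stand apart, so Grm2 and Shank2 turned sign. All 14 choroid plexus markers were positive here, with a median of 2.55; the part of these in the result was not tested.

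**Figure D5:**
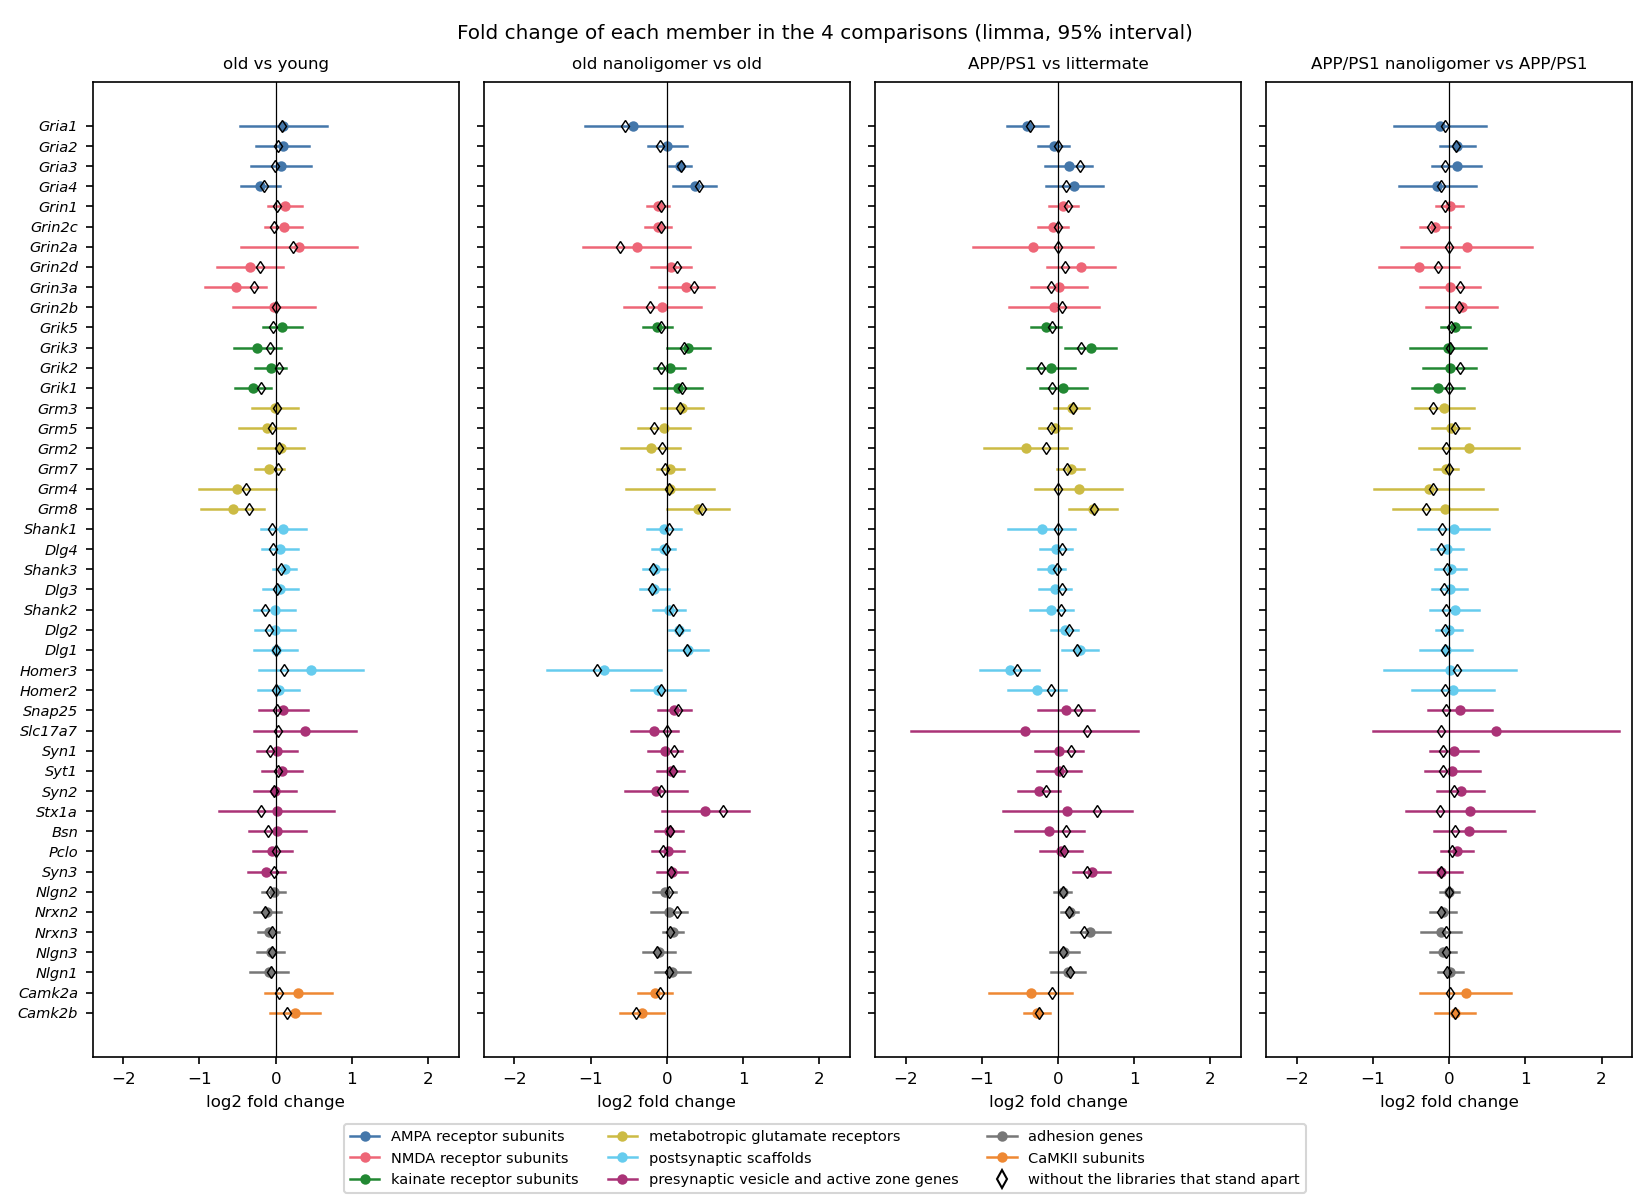
Log2 fold change of each member (points, with 95% intervals from limma) in the 4 comparisons, grouped by role; diamonds are the values without the libraries that stand apart. Slc17a7 has the widest intervals in the comparisons that hold APP/PS1 female 1, and the APP/PS1 and old nanoligomer panels show Camk2b and Homer3 to the left and Dlg1, Grm8 and Grik3 to the right.

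Some comparisons share libraries and are only set side by side: the old libraries serve the age and the old treatment comparison, and the APP/PS1 libraries serve the transgene comparison and the treatment of APP/PS1. Grm8 had a log2 fold change of -0.57 with age and 0.41 with treatment of old mice, and Camk2b had 0.25 and -0.32. In the transgenic cohort Camk2b had -0.28 with the transgenes and 0.08 with treatment, and Nrxn3 had 0.42 and -0.10.

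The old treatment and the transgene comparison share no library, and their fold changes resembled each other over the members. Pearson's r across the 45 genes was 0.784, with the same sign in 37, whereas over 16237 genes it was 0.297, with the same sign in 60.7%. Genes are not independent replicates and the libraries differ in regional content, so this is a description. Homer3 was at -0.82 and -0.63, Camk2b at -0.32 and -0.28, Grm8 at 0.41 and 0.46, Grik3 at 0.28 and 0.43 and Dlg1 at 0.28 and 0.29, with the old treatment first. With the libraries that stand apart left out, r was 0.729 over the members and 0.311 over 16186 genes, with the same sign in 33 of 45. The dentate markers had medians of -0.49 and -0.44 and the neocortex markers of 0.35 and 0.41 in the same 2 comparisons. Without the libraries that stand apart the dentate medians were -0.70 and -0.36 and the neocortex medians 0.56 and 0.45. The part of these markers in the likeness was not tested.

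Age and the transgenes, which share no library, had fold changes of opposite sign for most members, with r of -0.719 and the same sign in 11 of 45 genes, against -0.130 and 39.6% over 16300 genes. A test of the effect of age minus the effect of the transgenes, in 1 limma fit of both tables, called 0 members (0.0429% of all genes), and 8 (17.8%) had an unadjusted p under 0.05, against 11.8%. Leaving out the libraries that stand apart gave an r of -0.359 over the members, with the same sign in 15 of 45, and 0.120 over 16227 genes. The smallest p-values were those of Grm8 (difference in log2 fold change -1.02, SE 0.25, adjusted p 0.176), Nrxn3 (-0.51, SE 0.14, adjusted p 0.208) and Syn3 (-0.57, SE 0.16, adjusted p 0.229). Without those libraries the test called 0 members (0.074% of all genes), 12 (26.7%) had an unadjusted p under 0.05, against 9.33%, and Grm8, Nrxn3 and Syn3 differed by -0.82, -0.39 and -0.40 (adjusted p 0.322, 0.320 and 0.478). Between age and the treatment of APP/PS1, r was 0.573 over the members and -0.0704 over 16037 genes, with the same sign in 32 of 45; without those libraries it was 0.399 over the members and -0.233 over 15961 genes, with the same sign in 25.

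Treatment was also compared between cohorts. The effect of the nanoligomer in old mice minus its effect in APP/PS1 mice gave 0 called members by limma (0% of 15990 genes), and 1 (2.22%) with an unadjusted p under 0.05, against 4.35% of all genes. That gene was Camk2b, at -0.32 in old and 0.08 in APP/PS1 mice, a difference of -0.40 (SE 0.19, adjusted p 0.918). Gria4 differed by 0.52 (SE 0.28) and Grik5 by -0.21 (SE 0.13), at the same adjusted p. The fit without the libraries that stand apart called 0 members (0%), and 3 (6.67%) had an unadjusted p under 0.05, against 7.08%, Camk2b differing by -0.48 (SE 0.19, adjusted p 0.693). Over the members r between both treatment effects was -0.166, with the same sign in 16 of 45, and without those libraries -0.404, with the same sign in 15. Over all 15990 genes it was 0.0627, with the same sign in 50.6%. Without those libraries it was -0.0342 over 15932 genes, with the same sign in 47.8%.

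Differences between the sexes were tested as the male minus the female effect, and 0 members were called by limma in any of the 4 comparisons (0% of all genes in each). In the transgene comparison 6.67% of members had an unadjusted p under 0.05, against 5.1% of all genes, the smallest being Stx1a, with a log2 effect of 0.97 in males and -0.73 in females (difference 1.69, SE 0.65, adjusted p 0.847). Among females the 3 APP/PS1 libraries had 1918, 4895 and 12285 normalized counts of Stx1a against 7269, 8439.9 and 8514 in littermates, which overlapped. Among males the APP/PS1 libraries had 10328, 11063 and 12780.2 against 5296, 5887 and 6289.5 in littermates, and these did not overlap; neither did the males for 22 members (48.9%) and for 23.3% of all genes. Dlg4 (difference 0.41) and Grin1 (0.36) followed at the same adjusted p. Without APP/PS1 female 1 the difference of Stx1a was 1.02 (SE 0.36, adjusted p 0.907), 0 members were called (0.00608% of all genes) and 6.67% had an unadjusted p under 0.05, against 5.09%.

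In the other comparisons the share of members with an unadjusted p under 0.05 for the sex difference was 4.44% with age (4.39% of all genes), 2.22% with treatment of old mice (4.71%) and 4.44% with treatment of APP/PS1 mice (4.52%). The smallest p-values with age were those of Homer3 (difference 1.37, SE 0.51), Syn3 (-0.46, SE 0.19) and Grm8 (-0.72, SE 0.34), at an adjusted p of 0.983. With treatment of old mice they were those of Syt1, the calcium sensor of release (0.33, SE 0.14), Shank3 (-0.22, SE 0.13) and Grin2c (-0.23, SE 0.15), at an adjusted p of 0.914. With treatment of APP/PS1 mice they were those of Homer2 (-1.05, SE 0.40), Grin2b (-0.85, SE 0.36) and Nrxn2 (0.28, SE 0.14), at an adjusted p of 0.924, where the treated females numbered 2. Without the libraries that stand apart 0 members were called with age or with either treatment (0% of all genes in each). The shares with an unadjusted p under 0.05 were then 6.67% of members with age (6.68% of all genes), 11.1% with treatment of old mice (8.24%) and 4.44% with treatment of APP/PS1 mice (3.26%), where the age fit held 1 young male.

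Another list, of 54 glutamatergic synapse genes outside the 45, such as receptor auxiliary subunits, leucine-rich adhesion proteins and release factors, gave 0 calls by limma in all 4 comparisons. At an unadjusted p under 0.05 there were 13 of 54 with the transgenes (9 higher and 4 lower, beside 10.2% of all genes), 4 with treatment of old mice (7.22%), 1 with age (6.13%) and 1 with treatment of APP/PS1 mice (2.96%). The medians were -0.02, -0.01, 0.06 and 0.03 in that order. When the libraries that stand apart were left out, the counts were 14 (11.8% of all genes), 12 (12.3%), 1 (6.11%) and 0 (2.96%), again with 0 calls, and with the transgenes the median was 0.08 with 35 of 54 positive, beside 26 with all libraries. With the transgenes the smallest p-values were those of Neto2, a kainate receptor auxiliary subunit (log2 0.43, SE 0.09, adjusted p 0.169), Lrrc4c, a postsynaptic adhesion protein (0.37, SE 0.09, adjusted p 0.190), and Rims2, an active zone organiser (0.33, SE 0.09, adjusted p 0.229). Rims2 was at 0.34 (SE 0.12, adjusted p 0.678) with treatment of old mice.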

How the data were processed

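The authors deposited 4 tables of normalized counts, 1 per comparison, a signal equal to read counts divided by size factors. STAR, DESeq2 and mm10 are named, without versions, per the submitters' processing notes. Whole reads were recovered from the deposited signal, every value lying within 7.6e-10 of a whole read, and served for depth, CPM and count tests. Of the per-sample columns 0 were left out; the column of APP/PS1 nanoligomer male 3 differs from its label in a single letter.

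Each comparison was fitted within its own table with limma 3.58.1 (trend, sex as a covariate, R 4.3.3) on log2(normalized count + 1), so fold changes are on that scale and understate the change of low genes. Genes with a mean of at least 10 were tested, and calls used a Benjamini-Hochberg adjusted p under 0.05 over all of them. Sex differences were interaction terms, and differences between effects came from 1 fit of a pair of tables. Scripts were tested on simulated data. Levels per kilobase used GENCODE exon unions. The alternatives were edgeR 4.0.16 and DESeq2 1.42.0 on the recovered reads, CPM scaling, pseudocounts of 0.5 and 8, filters of none and 100, no trend, no sex term, a replicate block and leaving out each library.

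Named members were those called and, per comparison, the smallest p of each role, with up to 3 for differences; the genes named from the list of other synapse genes, between cohorts and beside the promoters were chosen after their values were seen. The members and lists were chosen with earlier results of these data known.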

Additional observations from a re-analysis of the deposited data

Results flagged for a closer look

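In each of the 6 groups the highest and the lowest library of every member were set against their neighbour by Dixon's ratio, on levels in CPM. Of 270 gene and group pairs, 43 (15.93%) held a library farther from the others than the 95% critical value, where chance gives about 1 in 20, and the genes of 1 library are not independent.

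APP/PS1 female 1 stood low in its group for 8 members, at levels in CPM of Grin2a 20.5, Grik5 287, Shank2 193, Homer2 38.3, Syn1 651, Bsn 415, Slc17a7 67.7 and Camk2a 1697. APP/PS1 female 1 stood high in its group for 5 members, at levels in CPM of Grin2d 90.0, Grik1 30.3, Grik2 97.4, Grm4 113 and Nrxn3 383.

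The young male 1 library stood low in its group for 10 members, at levels in CPM of Gria2 299, Grik5 260.1, Dlg3 174, Dlg4 856, Shank1 925, Shank2 205, Syt1 989, Bsn 449, Slc17a7 491 and Camk2a 2569. The young male 1 library stood high in its group for 2 members, at levels in CPM of Grin2d 77.6 and Grm4 91.0.

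The old male 3 library stood low in its group for 7 members, at levels in CPM of Grin2a 23.0, Grin2b 24.6, Grm5 102, Homer2 60.6, Syn2 398, Pclo 295 and Nlgn3 93.9. The old male 3 library stood high in its group for 1 member, at levels in CPM of Stx1a 463.

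The littermate female 1 library stood low in its group for 3 members, at levels in CPM of Grin2b 32.5, Shank2 265 and Pclo 329. The littermate female 1 library stood high in its group for 1 member, at levels in CPM of Grin2c 131. The old nanoligomer female 2 library stood high in its group for 2 members, at levels in CPM of Grin3a 75.3 and Nrxn2 814. The young male 2 library stood low in its group for 1 member, at levels in CPM of Nlgn3 111. The young male 2 library stood high in its group for 1 member, at levels in CPM of Grm3 93.4. The old female 2 library stood high in its group for 1 member, at levels in CPM of Syn3 61.3. The old male 1 library stood high in its group for 1 member, at levels in CPM of Nrxn3 218. The first of these, littermate female 1, does not belong to the 6 libraries with high striatum or thalamus markers.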

How the results depend on the processing

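The count of members called was 0 by limma in all 4 comparisons, and it was 0 under every alternative run with these exceptions. With the transgenes DESeq2 called 3 members, and leaving out 1 library at a time gave 0 to 4 calls, the 4 without APP/PS1 female 3. For the sex difference with the transgenes leaving out 1 library gave 0 to 1 calls, the 1 being Stx1a without APP/PS1 female 2. The share of all genes called in that fit is not given here. That fit kept APP/PS1 female 1, whose Stx1a, at 55.8 CPM, was the lowest of 35 libraries. With APP/PS1 female 1 left out instead, the adjusted p of Stx1a in limma was 0.907. The number of members with an unadjusted p under 0.05 ran over these leave-outs from 3 to 5 with age, 1 to 12 with treatment of old mice (12 without old male 3), 8 to 15 with the transgenes and 0 to 1 with treatment of APP/PS1 mice. The share of all genes ran from 4.80 to 7.19%, 4.81 to 13.3%, 8.29 to 13.7% and 1.73 to 5.06% in the same order. The cause was not tested.

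Among the members named for the smallest p of their role, fold changes turned sign in the treatment of APP/PS1 mice, none of them called. Over single leave-outs Shank2 ran from -0.047 to 0.14 and Camk2a from -0.025 to 0.32, both lowest without APP/PS1 female 1. Without the libraries that stand apart, an alternative chosen after seeing the data, Grm2 was at -0.040 and Shank2 at -0.034; over all 45 members that alternative turned the sign of 13 with age, 7 with treatment of old mice, 11 with the transgenes and 16 with treatment of APP/PS1 mice, Slc17a7 among those of both APP/PS1 comparisons, and 0 of these had an unadjusted p under 0.05 with all libraries. With the shallow treated female 3 kept, Gria2 was at -0.35, Grik5 at -2.13, Grm2 at -0.37, Shank2 at -0.74, Bsn at -1.45 and Camk2a at -0.96, where the median over all genes was also displaced, to -0.68.

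With the replicate number as a block, 0 members were called in every comparison, and 3, 5, 13 and 0 had an unadjusted p under 0.05 (age, treatment of old mice, transgenes, treatment of APP/PS1 mice), beside 6.26, 5.77, 10.7 and 2.72% of all genes. The numbers share no stated origin: libraries of the same number correlated in their deviations at -0.247 to 0.294, -0.168 to 0.0585, -0.0236 to 0.187 and 0.00857 to 0.101 in the same order. They were best matched to their own number in 2, 1, 4 and 3 cases. With 5 or 6 pairs a comparison, these values cannot decide whether the numbers pair the libraries. The 35 libraries used held at least 27.6 M reads each, and 5 or 6 libraries a group limit the precision.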

Other observations

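The library left out for depth, APP/PS1 nanoligomer female 3, held 0.913 M reads over 9509 genes. Its reads on the 45 members numbered 3311, or 0.363% of its total, against 1.60 to 2.80% in the other libraries, and 11 members had 0 reads there.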
